A study of Mus musculus with 6 samples.

Results

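To follow the RNA of retinal ganglion cells (RGCs) after optic nerve crush (ONC), 10 genes that mark these neurons by their cytoskeleton, their surface or their transmitter were read in every library of the series. They are Rbpms, Slc17a6, Sncg, Nefl, Nefm, Nefh, Thy1, Stmn2, Tubb3 and Opn4. They were taken by symbol, and all 10 were found among the 32371 mouse genes of the count table. All 10 passed the filter on low counts and were among the 18138 genes tested. Of the 6 libraries, 3 came from adult C57BL/6J mice of both sexes that received AAV2-GFP in the vitreous body and 3 from mice that received AAV2-Ezh2-Y726D. Ezh2 is the histone methyltransferase of Polycomb repressive complex 2, and Ezh2-Y726D is a form without that enzyme activity. In both groups the nerve was crushed 2 weeks after the injection and cells were collected 3 days later, so that every library is from injured retinas and no uninjured sample is compared here. Live cells were sorted by FACS for CD90.2, the surface protein made from Thy1, which makes the Thy1 level partly a property of the gate. The vector is not specific to RGCs. The promoter of the vector and the number of mice behind a library are not given in the sources used here, so that p-values measure only the spread between these libraries, which may be technical.

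RGCs are the output neurons of the retina, and their axons form the optic nerve. A crush severs these axons, after which many RGCs lose expression of mature genes and die over the following weeks. The long axon is held by neurofilaments, which are copolymers of the light, medium and heavy chains made from Nefl, Nefm and Nefh, and by microtubules, to which Tubb3 gives the neuronal class III β-tubulin. Stmn2 encodes a stathmin that binds tubulin dimers and is carried into growing axons. Slc17a6 encodes VGLUT2, which loads glutamate into the synaptic vesicles of RGCs, Sncg encodes γ-synuclein, and Rbpms encodes an RNA-binding protein found in almost all RGCs and used to count them. Opn4 encodes melanopsin, the photopigment of the small class of intrinsically photosensitive RGCs.

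Ezh2 itself checked the labels. In GFP it was at 22.7, 23.8 and 26.3 CPM (read counts scaled to library size with TMM factors), against 65.1, 65.5 and 65.1 CPM in Ezh2-Y726D, with no overlap, and these counts do not separate vector from endogenous transcripts. Total counts were 9333244 to 22370285 in GFP and 18215734 to 23782520 in Ezh2-Y726D. In GFP replicates 2 and 3, 50.9% and 52.2% of the counts fell on 1 ribosomal RNA gene, CT010467.1, against 6.59% in GFP replicate 1 and at most 16.1% in Ezh2-Y726D. These GFP libraries therefore had the fewest counts for the RGC genes.

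The libraries are labelled as RGCs, and the RGC genes were present in each of them, but so were the defining genes of other retinal cells. Slc17a7, the vesicular glutamate transporter of photoreceptors and bipolar cells, was at 66.2 ± 4.39 CPM per kb of exon in GFP and Gad1, an enzyme of GABA synthesis in amacrine cells, at 39.3 ± 2.43, while the 10 RGC genes ran from 0.679 ± 0.274 (Opn4) to 48.3 ± 3.26 (Tubb3) CPM per kb (SD, n = 3 libraries). The sorted cells are therefore described below as sorted retinal cells. In such a mixture, fewer RGCs and less RNA per RGC cannot be told apart.

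The promoters of 4 of the 10 genes were in the RefSeq table on GRCm38.p6, each as a window of 300 bases that runs from 250 bases before to 50 bases after the start of transcription. They are shown because Polycomb complexes of mammals gather at promoters rich in the dinucleotide CG, written here in capitals. Tubb3 held 26 CG, as many as or more than which were found in 16.9% of the 32851 windows of the table. Sncg held 9 (45.8% of windows had as many), the first window of Slc17a6 held 8 (48.6%), its second window 3 (76.7%) and Opn4 held 4 (68.6%), and the median window held 7. The letters TATAAA were in none of the 5 windows of these genes on either strand, and in 13.6% of all windows. The windows of Sncg and Opn4, both read on the minus strand, and of Tubb3, on the plus strand, were the following.
Tubb3 (chr8:123411303-123411602, plus strand): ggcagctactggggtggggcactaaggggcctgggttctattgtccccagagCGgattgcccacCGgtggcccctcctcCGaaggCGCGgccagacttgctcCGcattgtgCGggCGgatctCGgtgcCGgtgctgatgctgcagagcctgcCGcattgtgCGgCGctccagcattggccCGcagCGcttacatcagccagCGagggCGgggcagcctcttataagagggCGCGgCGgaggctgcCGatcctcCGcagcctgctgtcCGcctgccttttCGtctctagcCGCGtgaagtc
Sncg (chr14:34374620-34374919, minus strand): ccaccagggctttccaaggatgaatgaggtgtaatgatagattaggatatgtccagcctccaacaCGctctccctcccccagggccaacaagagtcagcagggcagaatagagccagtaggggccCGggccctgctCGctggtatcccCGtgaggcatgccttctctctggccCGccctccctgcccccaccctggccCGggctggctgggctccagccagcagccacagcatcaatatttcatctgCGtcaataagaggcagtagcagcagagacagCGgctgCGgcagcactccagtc
Opn4 (chr14:34600093-34600392, minus strand): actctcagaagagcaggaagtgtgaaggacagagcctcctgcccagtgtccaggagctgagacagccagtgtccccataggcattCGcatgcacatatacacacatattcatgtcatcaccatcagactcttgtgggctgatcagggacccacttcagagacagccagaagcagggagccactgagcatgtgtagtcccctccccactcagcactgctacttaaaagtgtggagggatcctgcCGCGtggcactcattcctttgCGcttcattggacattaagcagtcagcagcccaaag
No measure of chromatin was analysed here, and the count of CG is a description of these windows only.

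In the annotation on GRCm38, 4 of the 10 genes lie on chromosome 14 and 2 (Rbpms and Tubb3) on chromosome 8. Sncg and Opn4 are separated by 215828 bases. Nefl lies wholly within the span of an annotated Nefm transcript on the opposite strand, and 32.8% of its exonic bases and 19.2% of those of Nefm overlap. Because the sources used here do not say whether counting used the strand, some reads of Nefl and Nefm cannot be assigned to one of them with certainty. Less than 1% of the 50-base stretches of each of the 10 genes recurred on the same strand of another gene, at most 0.87% (Stmn2).

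Most of the 10 genes were not shown to differ between the groups. Of the 10, 1 gene (Thy1) was higher and 0 were lower after Ezh2-Y726D by the quasi-likelihood test of edgeR (adjusted P under 0.05), against 27.5% of all genes tested that passed in either direction, 13.9% higher and 13.6% lower. At an unadjusted P under 0.05, 2 were lower, Rbpms and Tubb3, against 17.8% of all genes tested. DESeq2 called 0 of the 10, against 19.9% of the genes to which it gave an adjusted P. There 2 of the 10 were at an unadjusted P under 0.05, against 15.2% of all 32371 genes. That total includes genes below the low-count filter, which all 10 passed, so these shares are not alike. None of the 10 reached the fold change over 1.5 that the study adds to its threshold, which 8.02% of all genes tested did together with the adjusted P. The groups did not overlap in 2 of the 10, Thy1 and Stmn2, against 38.6% of all genes tested. Leaving out Opn4, the log2 fold changes of Ezh2-Y726D over GFP ran from -0.20 to 0.13. The median of the 10 was -0.07, beside a median of 0.00 and an interquartile range of -0.15 to 0.15 over all genes tested. Summed over the 10 genes, the level was 565, 583 and 562 CPM in GFP and 557, 592 and 543 CPM in Ezh2-Y726D, so that the range of GFP lay inside that of Ezh2-Y726D.

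**Figure D1:**
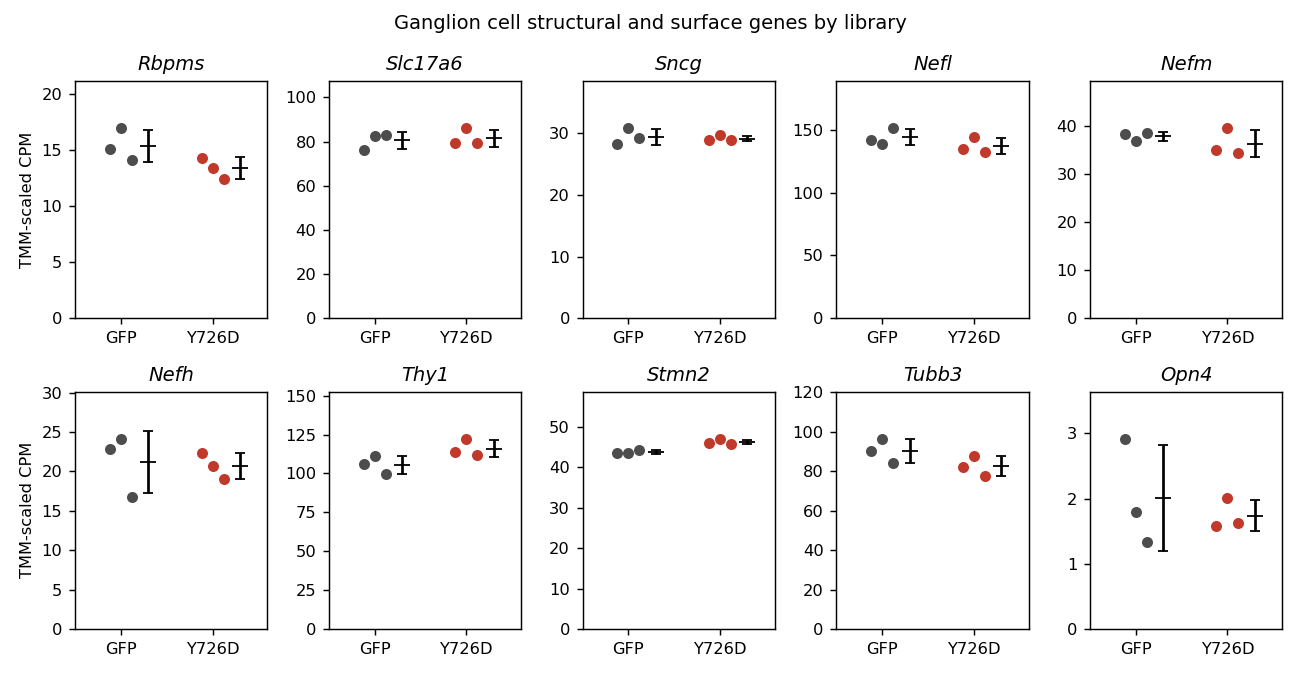
TMM-scaled CPM of the 10 RGC genes, 1 panel a gene, with 1 point a library (grey GFP, red Ezh2-Y726D) and the mean ± SD of 3 libraries beside the points. Only Thy1 and Stmn2 show groups without overlap, and Opn4 in GFP runs from 1.33 to 2.91 CPM.

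The first 2 genes are the marker used to count RGCs and their vesicular transporter. Rbpms (ENSMUSG00000031586, chromosome 8, 33782643 to 33929863) was at 15.1, 16.9 and 14.1 CPM in GFP and at 14.3, 13.4 and 12.4 CPM in Ezh2-Y726D. The groups met only in the lowest GFP and the highest Ezh2-Y726D library. Its log2 fold change was -0.20 with a 95% interval of -0.38 to -0.02 (adjusted P = 0.0985, edgeR), that is, a fold between 0.77 and 0.99. It passed only when Ezh2-Y726D replicate 1 was left out (-0.26, adjusted P = 0.0455, edgeR). The adjusted P ran from 0.0455 to 0.419 over 14 alternatives, which leave out plain library totals. With plain library totals the log2 fold change was 0.30 (adjusted P = 0.556, edgeR).

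Slc17a6 (ENSMUSG00000030500, chromosome 7, 51622006 to 51671119) was at 76.1, 82.6 and 82.8 CPM in GFP and at 79.2, 85.9 and 79.1 CPM in Ezh2-Y726D. The groups overlapped over most of their range. Its log2 fold change was 0.03 with an interval of -0.07 to 0.13 (adjusted P = 0.715, edgeR), which bounds the fold between 0.95 and 1.10.

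Sncg (ENSMUSG00000023064, chromosome 14, 34370274 to 34374789), whose product is an abundant soluble protein of RGC bodies and axons, gave the smallest difference of the 10. It was at 28.2, 30.8 and 29.2 CPM in GFP and at 28.9, 29.7 and 28.9 CPM in Ezh2-Y726D, with the Ezh2-Y726D libraries inside the GFP range. The log2 fold change was 0.01 (interval -0.12 to 0.13, adjusted P = 0.962, edgeR).

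None of the 3 neurofilament chains was shown to differ between the groups. Nefl (ENSMUSG00000022055, chromosome 14, 68083863 to 68089095) was at 142, 139 and 151 CPM in GFP and at 135, 144 and 132 CPM in Ezh2-Y726D. Nefm (ENSMUSG00000022054, chromosome 14, 68082590 to 68124846) was at 38.3, 36.7 and 38.4 CPM in GFP and at 34.9, 39.4 and 34.3 CPM in Ezh2-Y726D. In both genes Ezh2-Y726D replicate 2 was the highest of its group and the other libraries of that group lay below all GFP libraries. Nefh (ENSMUSG00000020396, chromosome 11, 4938754 to 4948064) was at 22.8, 24.1 and 16.7 CPM in GFP and at 22.3, 20.7 and 19.1 CPM in Ezh2-Y726D, with GFP replicate 3, the library of fewest counts, the lowest of all. The log2 fold changes were -0.07 for Nefl (interval -0.16 to 0.02), -0.07 for Nefm (-0.20 to 0.06) and -0.09 for Nefh (-0.26 to 0.09). None passed, with adjusted P values of 0.232, 0.455 and 0.517 in edgeR. For Nefh the log2 fold change was -0.01 without GFP replicate 1 and -0.17 without GFP replicate 3. Overlapping reads of Nefl and Nefm, described above, touch these values.

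Per kb of exon, the neurofilament chains were far from equal. Nefl was at 42.7 ± 1.83 CPM per kb in GFP and 40.5 ± 1.96 in Ezh2-Y726D, Nefm at 6.54 ± 0.165 and 6.26 ± 0.48, and Nefh at 5.31 ± 0.986 and 5.18 ± 0.397 (SD, n = 3 libraries each). The ratio of Nefl to Nefm within a library was 6.53 ± 0.188 in GFP and 6.47 ± 0.182 in Ezh2-Y726D (SD, n = 3 libraries each), a ratio that no scaling of libraries can move. When each gene was divided by its longest transcript, the ratio was 4.16 and 4.12, since Nefm has 5.78 kb of exon over all transcripts and 3.68 kb in the longest.

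The class III β-tubulin gene Tubb3 (ENSMUSG00000062380, chromosome 8, 123411424 to 123422015) was at 90.1, 96.3 and 84.1 CPM in GFP and at 82.2, 87.8 and 77.8 CPM in Ezh2-Y726D. The groups overlapped between the lowest GFP library and the highest Ezh2-Y726D library. Its log2 fold change of -0.13 (interval -0.24 to -0.03) did not pass, with an adjusted P of 0.0534 in edgeR. It was below 0.05 in 5 of 14 alternatives, which leave out plain library totals, among them with RLE size factors (0.0485), with totals taken without CT010467.1 (0.0261), and without Ezh2-Y726D replicate 2 (0.0209) or GFP replicate 3 (0.0212), all in edgeR. With all libraries thinned to the same depth outside CT010467.1, in a single random draw, the log2 fold change was 0.01. Over the 14 alternatives the adjusted P ran from 0.0164 to 0.98.

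Stmn2 (ENSMUSG00000027500, chromosome 3, 8509360 to 8561606) had the tightest replicates of the set. It was at 43.5, 43.5 and 44.4 CPM in GFP and at 46.0, 47.0 and 45.9 CPM in Ezh2-Y726D, a coefficient of variation of 1.13% and 1.27%. The groups did not overlap, but the log2 fold change of 0.08 (interval -0.03 to 0.19) did not pass (adjusted P = 0.308, edgeR).

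Thy1 (ENSMUSG00000032011, chromosome 9, 44043384 to 44048579), the gene of the sorting antigen, was at 106, 111 and 99.5 CPM in GFP and at 114, 122 and 112 CPM in Ezh2-Y726D. Every Ezh2-Y726D library lay above every GFP library, though the nearest pair of libraries were close. Thy1 rose by a log2 fold change of 0.13 (standard error 0.046, interval 0.04 to 0.23, adjusted P = 0.0315, edgeR), a rise of 9.6%. This call was lost without Ezh2-Y726D replicate 2 (0.09, adjusted P = 0.213), without GFP replicate 1 (0.13, adjusted P = 0.0935) and without GFP replicate 3 (0.11, adjusted P = 0.119), all in edgeR, and in DESeq2 (0.14, adjusted P = 0.067). Over 14 alternatives, which leave out plain library totals, Thy1 was called in 8, with adjusted P from 0.00854 to 0.213. T cells of the mouse also carry CD90.2, and all 9 T cell markers listed were lower after Ezh2-Y726D. The summed level of these markers was 146 to 149 CPM in GFP and 83.1 to 92.0 CPM in Ezh2-Y726D, with none at 0. Their part in the Thy1 level was not tested.

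Opn4 (ENSMUSG00000021799, chromosome 14, 34590618 to 34600142) was the gene measured with the least precision. It had 83, 14 and 8 counts in GFP and 42, 41 and 48 counts in Ezh2-Y726D, or 2.91, 1.80 and 1.33 CPM against 1.58, 2.01 and 1.62 CPM. GFP replicate 1 was the highest of all libraries and GFP replicate 3 the lowest. The log2 fold change was -0.47 with an interval of -0.96 to 0.01 (adjusted P = 0.153, edgeR), and it was 0.11 without GFP replicate 1. A change of the size of the Thy1 difference was not detectable for Opn4 at this depth.

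Ordered per kb of exon in GFP, Tubb3 stood first with 48.3 ± 3.26 CPM per kb, followed by Nefl with 42.7 ± 1.83, Thy1 with 35.2 ± 1.84 and Sncg with 34.5 ± 1.53 (SD, n = 3 libraries each). Slc17a6 with 14.9 ± 0.707 came next, then Stmn2 with 7.82 ± 0.0881, Nefm with 6.54 ± 0.165 and Nefh with 5.31 ± 0.986. Rbpms with 2.34 ± 0.216 and Opn4 with 0.679 ± 0.274 were the lowest. Of neighbours in this order, Thy1 and Sncg overlapped in their GFP libraries, which ran from 33.2 to 36.9 and from 33.1 to 36.1 CPM per kb. In Ezh2-Y726D, Tubb3 (41.6 to 47.0) and Nefl (38.9 to 42.7) overlapped, as did Nefl and Thy1 (37.4 to 40.8), and Thy1 lay above Sncg (34.0 to 34.8). The order depends on the length used, since per kb of the longest transcript Thy1 stood first in GFP with 60.7 CPM per kb.

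To see whether the balance among the RGC genes differed without reference to the rest of the transcriptome, each gene was set against the mean log2 CPM of the 10 genes in the same library. In this ratio 2 of the 10 genes had groups without overlap, against 31.0% of all genes tested when set against the same mean. Thy1 was 1.52, 1.59 and 1.58 above the mean in GFP and 1.72, 1.75 and 1.76 above it in Ezh2-Y726D, on the log2 scale. Tubb3 was 1.28, 1.39 and 1.34 above the mean in GFP and 1.26, 1.27 and 1.23 above it in Ezh2-Y726D. In CPM, the groups of Tubb3 overlapped. The mean includes Opn4, the gene measured with the least precision, with 83, 14 and 8 counts in GFP. The difference between groups was 0.18 for Thy1 and -0.09 for Tubb3, each with an exact 2-sided permutation P of 0.1, the smallest that 3 libraries against 3 can give. Without GFP replicate 3, 5 genes had groups without overlap, but the share over all genes was not computed for that setting. Groups separate more easily with a library fewer, so this count cannot be set against the 31.0%. With all libraries, the ratio of Slc17a6 differed by 0.06, that of Sncg by 0.03 and those of the neurofilament chains by -0.04 to 0.02. Those of Rbpms, Stmn2 and Opn4 differed by -0.16, 0.12 and -0.10, with groups that overlapped.

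Relatives of the RGC genes, which other retinal neurons use as well, were then read in the same libraries. Rbpms2, an RNA-binding protein of RGCs like Rbpms, had a log2 fold change of -0.14 (interval -0.44 to 0.15), close to that of Rbpms. Sncb, which encodes β-synuclein, rose by 0.19 on the log2 scale (adjusted P = 0.00138, edgeR). The log2 ratio of Sncb to Sncg within a library was 2.09, 1.96 and 1.91 in GFP and 2.22, 2.22 and 2.16 in Ezh2-Y726D, without overlap.

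The vesicular glutamate transporters went different ways. Slc17a7, which encodes VGLUT1 of photoreceptors and bipolar cells, fell by 0.27 on the log2 scale, from 374, 330 and 368 CPM in GFP to 295, 293 and 304 CPM in Ezh2-Y726D (adjusted P = 1.96e-05, edgeR). Slc17a8, which encodes VGLUT3 of a class of amacrine cells, rose by 0.42 (adjusted P = 0.00402, edgeR). Slc17a6, the transporter of RGCs, stood between them at 0.03. The log2 ratio of Slc17a7 to Slc17a6 was 2.30, 2.00 and 2.15 in GFP and 1.90, 1.77 and 1.94 in Ezh2-Y726D, and that of Slc17a8 to Slc17a6 was -3.46, -3.39 and -3.54 against -3.07, -3.22 and -2.99. Neither ratio overlapped between groups.

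Of the other neuronal intermediate filaments, Ina, which encodes α-internexin and assembles with the neurofilament chains, rose from 41.7 ± 1.36 to 50.7 ± 2.26 CPM (n = 3 a group, SD). Its log2 fold change was 0.27 (adjusted P = 5.02e-04, edgeR), and 14.1% of its exonic bases overlap another gene. The log2 ratio of Ina to Nefl was -1.75, -1.71 and -1.92 in GFP and -1.44, -1.44 and -1.42 in Ezh2-Y726D, and that of Ina to Nefm was 0.15, 0.21 and 0.06 against 0.51, 0.43 and 0.52. Both ratios were without overlap between groups, while the ratio of Ina to Nefh overlapped. Prph, which encodes peripherin, was at 1.68, 2.96 and 1.49 CPM in GFP and 1.35, 1.81 and 1.69 CPM in Ezh2-Y726D and had a log2 fold change of -0.26 (interval -0.78 to 0.25).

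Of the other stathmins, Stmn3 rose by a log2 fold change of 0.25 (adjusted P = 1.20e-04, edgeR), while Stmn1 at 0.10 and Stmn4 at 0.16 did not pass. The ratio of Stmn3 to Stmn2 did not overlap between groups, with a difference of 0.18. In all, 12 ratios of a relative to an RGC gene were computed, chosen after values of these genes were seen, and 7 were without overlap between groups. When every tested gene was set against the same RGC genes, 34.2% of the ratios were without overlap. Each of these 7 had an exact permutation P of 0.1, the smallest possible here, and an adjusted P of 0.171 over the 12.

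**Figure D2:**
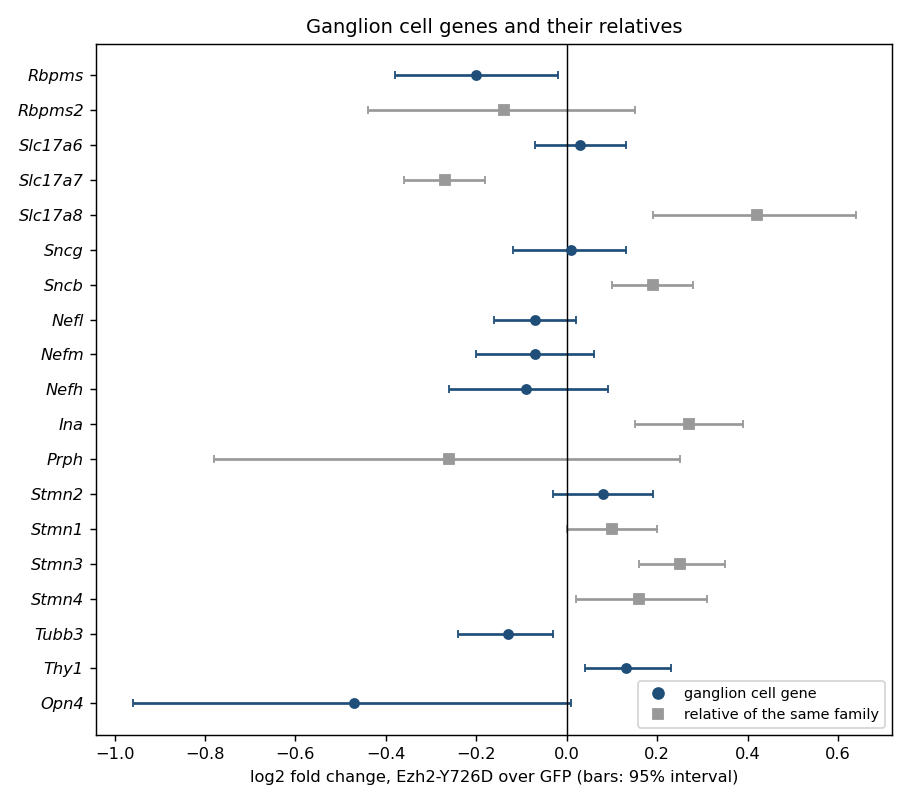
Log2 fold change of Ezh2-Y726D over GFP with its 95% interval for the 10 RGC genes (blue circles) and for 9 relatives (grey squares), from the edgeR fit. Ina, Sncb, Slc17a8 and Stmn3 lie right of 0 and Slc17a7 left of it, while the blue points other than Opn4 run from -0.20 to 0.13.

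Beyond these relatives, 8 lists of related genes were read in the same fit, in which 13.9% of all genes tested were higher and 13.6% lower. Of the 19 other tubulin, stathmin and microtubule-associated genes, 12 were higher and 7 did not pass, with a median of 0.20. Tubb4a, a β-tubulin of mature neurons and glia, had the largest rise of these, from 59.5 ± 2.09 to 84.6 ± 4.30 CPM (n = 3 a group, SD), or a log2 fold change of 0.50. Tubb2a rose by 0.23, next to the -0.13 of Tubb3, while the β-tubulins Tubb2b (0.15) and Tubb4b (-0.00) did not pass. Of the 7 other filament and filament-linker genes, 5 were higher and 2 did not pass (median 0.18), with the largest rise, 0.32, in Ank3, which encodes ankyrin-G of the axon initial segment. Of the 8 other neuronal RNA-binding genes, 7 were higher and 1 did not pass (median 0.42), and Elavl3, a Hu protein of neurons, rose by 0.57. Rbpms2 was the gene of this list that did not pass.

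Of the 9 other axonal surface genes, which belong with Thy1 by place, 5 were higher and 4 did not pass (median 0.15). Ncam2, a cell adhesion molecule of the immunoglobulin family, rose most, from 25.4, 34.3 and 32.6 CPM to 51.8, 54.5 and 53.4 CPM. Of the 10 pan-neuronal genes, 8 were higher and 2 did not pass (median 0.24). Of the 4 other synuclein and vesicular glutamate transporter genes, 3 were higher and Slc17a7 was lower (median 0.30). By its median of -0.07, the RGC set was thus below each of these 6 lists of neuronal genes, which are not restricted to RGCs. The lists were chosen with earlier results known, and the difference between lists was not tested.

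Melanopsin cells were followed by 9 further genes, of which 3 were higher and 2 lower (median 0.02). Tbx20, a transcription factor of these cells, fell from 2.00, 2.45 and 2.32 CPM to 1.31, 1.17 and 1.49 CPM, a log2 fold change of -0.68 (adjusted P = 0.0285, edgeR). Adcyap1, which encodes the peptide PACAP that melanopsin cells release, was the other gene that fell, by 0.52 on the log2 scale (adjusted P = 1.76e-04, edgeR). Eomes, a transcription factor of melanopsin cells, did not pass, at 0.03. Trpc6, 1 of the channels opened by the melanopsin cascade, had the largest rise (0.79), and Trpc6 is expressed in other cells of the retina.

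Of 11 transcription factor genes of RGCs, 3 were higher, 1 was lower and 7 did not pass, with a median of 0.03. Pou4f1, which encodes Brn3a, rose from 9.39, 10.4 and 9.61 CPM to 13.5, 12.1 and 12.8 CPM, a log2 fold change of 0.41 (adjusted P = 0.00151, edgeR). Pou4f2, which encodes Brn3b, did not pass (-0.43, interval -0.96 to 0.10). Ebf3, which amacrine cells also express, rose by 0.52, and Isl1, which bipolar and amacrine cells also express, fell by 0.58 on the log2 scale.

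**Figure D3:**
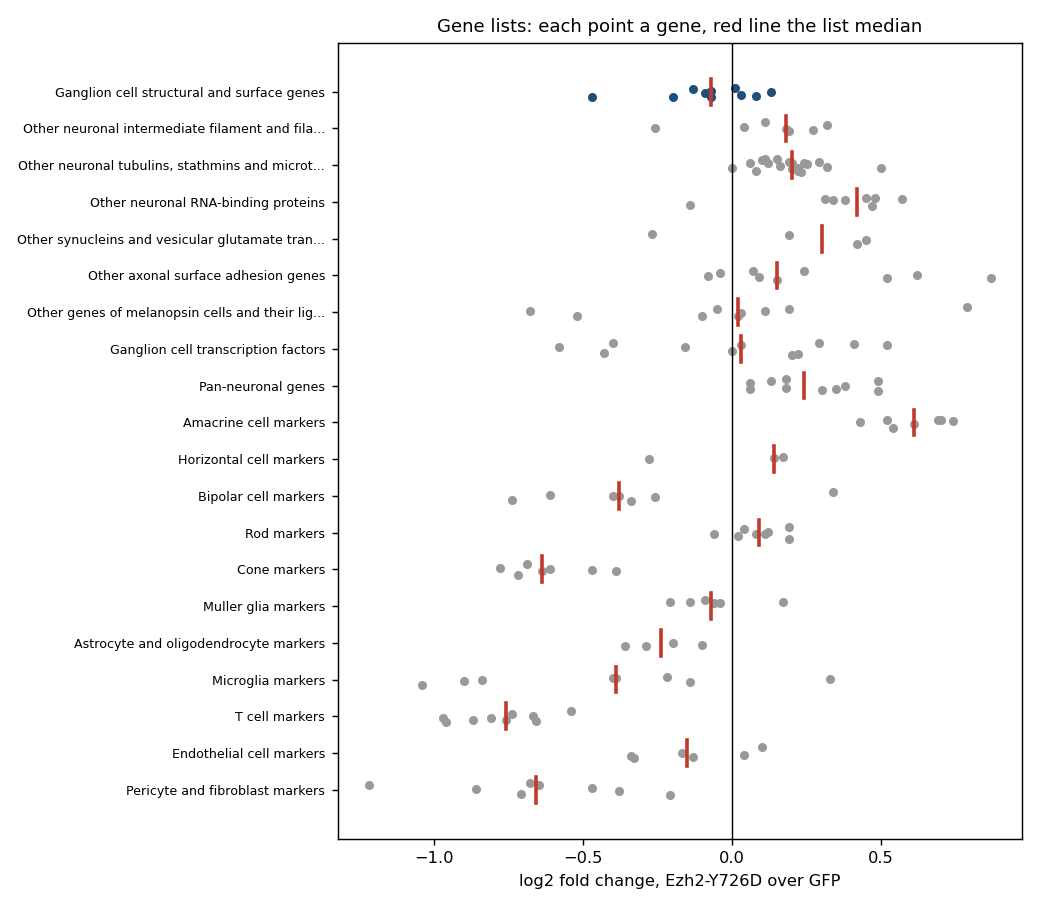
Log2 fold change of Ezh2-Y726D over GFP for every tested gene of each list (points) and the list's median (red line), with the RGC genes in blue. The RGC median lies at -0.07, that of amacrine markers at 0.61 and that of cone markers at -0.64.

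Markers of several other kinds of cells differed between the groups, beside 13.9% of all genes tested that were higher and 13.6% that were lower. All 7 tested amacrine markers were higher, and their summed level was 986 to 1060 CPM in GFP and 1536 to 1596 CPM in Ezh2-Y726D. Slc6a9, the glycine transporter GlyT1, rose most (0.74), and 30.2% of its exonic bases overlap another gene. All 7 cone markers were lower (441 to 461 against 282 to 297 CPM), with Gngt2 lowest at -0.78. Of the 7 bipolar markers 6 were lower and Prkca was higher, with a summed level of 941 to 953 against 785 to 802 CPM and the largest fall in Vsx1 (-0.74). Of the 8 rod markers, 3 were higher and 5 did not pass (5650 to 5820 against 6195 to 6395 CPM).

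Of the 8 microglia markers, 6 were lower and P2ry12 was higher, with a summed level of 751 to 841 CPM in GFP and 487 to 572 CPM in Ezh2-Y726D. Aif1, which encodes Iba1, fell most (-1.04). All 9 T cell markers were lower, with the largest fall in Cd8a (-0.97) and with Cd3e at -0.66. Of the 8 tested pericyte and fibroblast markers 7 were lower (226 to 247 against 173 to 188 CPM), Dcn most (-1.22). None of these marker genes was at 0 counts in all libraries. Some of the 10 RGC genes, such as Stmn2 and Tubb3, are also expressed by amacrine and other neurons, and the part of these cells in the RGC gene levels was not tested.

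**Figure D4:**
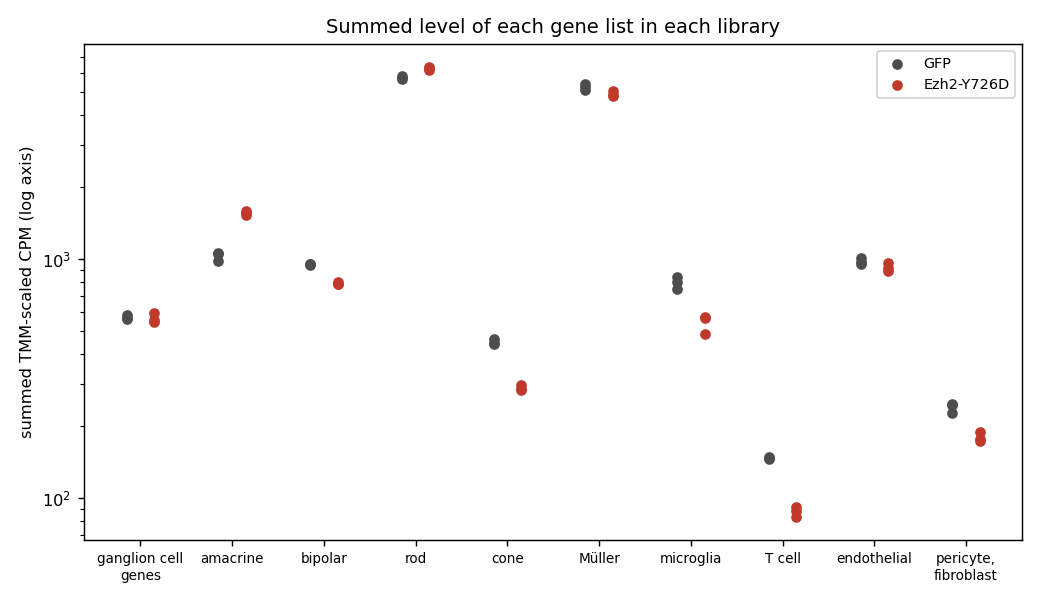
Summed TMM-scaled CPM of the RGC genes and of the markers of 9 other kinds of cells in each library (log axis, grey GFP, red Ezh2-Y726D). The points of the 2 groups mingle for the RGC genes, between 543 and 592 CPM, and are apart for every other kind drawn except endothelial cells.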

How the data were processed

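The authors deposited 1 table of whole-number counts of reads per Ensembl gene, without normalization, for 6 RNA-Seq libraries. Their processing notes name STAR 2.7.0d and GRCm38, and the labels a stranded total RNA kit. The counting tool, annotation and use of strand are not given in the sources used here. Symbols were found for 32325 of 32371 identifiers, and 32342 were in GENCODE vM21, the source of coordinates and exon lengths. Counts were scaled by TMM (factors 0.647 to 1.31) and compared in edgeR 4.0.16 (R 4.3.3) with the quasi-likelihood test, after filterByExpr (10 counts, total 15), with Benjamini-Hochberg adjustment over 18138 genes. DESeq2 1.42.0 was an alternative. Standard errors are the log2 fold change over the square root of F, and 95% intervals use the fit's degrees of freedom. The procedure was tested on simulated data. Levels per kb are CPM over the union of exons.

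The members, lists and tests were chosen with earlier results of these data known. Named are the 10 genes, Ezh2, fixed relatives, and each list's largest called rise and fall, or else its most abundant gene. Some further genes (Gad1, Tubb2a, Tubb2b, Tubb4b, Adcyap1, Eomes, Slc1a3, CT010467.1) and the ratios to relatives were chosen after their values were seen. Of the marker genes, Mog and Mobp were not found, and Chat, Lhx1, Pax2 and Lum were below the filter. The libraries differed by more than counting noise (chi-square per degree of freedom 1.49 to 3.03 within groups). Alternatives were RLE factors, library totals with and without CT010467.1, DESeq2, 2 other filters, thinned counts, a fold change threshold, the replicate number as a block and leaving out each library. Leaving out both GFP libraries rich in rRNA was added after the data were seen. Some genes of the lists are counted but not reported by name here.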

Additional observations from a re-analysis of the deposited data

How the results depend on the processing

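Scaling by plain library totals, which leaves the rRNA reads of GFP replicates 2 and 3 in the totals, moved the median of log2 fold changes over all genes to 0.49 and the number of genes called by edgeR from 4988 (50.6% higher) to 65 (70.8% higher). Under it Rbpms was at 0.30, Nefl, Nefm and Nefh at 0.43, Tubb3 at 0.37 and Opn4 at 0.03, all still below that median. Slc17a6 (0.54), Sncg (0.50), Thy1 (0.64) and Stmn2 (0.58) were above that median. With totals that leave out CT010467.1, Sncg was at -0.01. Thinned counts, from a single random draw, gave 1428 genes called and Tubb3 at 0.01, and the fold change threshold gave 1455 genes. Of the 10 RGC genes, 0 were called higher with either kind of library totals, with DESeq2 and with the fold change threshold. Over all genes, 46 were higher with plain totals, 2214 with totals without CT010467.1 and 1792 with DESeq2. Called lower was 1 gene with RLE factors, totals without CT010467.1 and the replicate block (Tubb3 each time). Of all 18138 genes tested, 2485, 2730 and 2548 were lower under these settings, in that order. Without both GFP libraries rich in rRNA, Opn4 was at -0.76, in a fit that assumes the lone GFP library to vary like the others. With each library left out in turn, 0 to 1 of the 10 were higher and 0 to 1 lower, and 3772 to 4602 of all genes were called. Slc17a6 then ran from -0.03 to 0.05, Sncg from -0.05 to 0.03 and Opn4 from -0.60 to 0.11, each on both sides of 0. Of the ratios to the mean of the RGC genes, 2 to 5 were without overlap with a library left out, and 4 with the median as reference. The share over all genes was not computed for these settings, so these counts have no background beside them. With the longest transcript as length, the ratio of Nefl to Nefm was 4.16 in GFP and 4.12 in Ezh2-Y726D and that of Nefm to Nefh 1.99 and 1.91. The cause of these moves was not tested, apart from the lengths. Same-numbered libraries correlated in their deviations from the group means by 0.137, 0.051 and 0.039 across genes, so that the numbers do not pair the libraries, though each library correlated best with its own number, a hint from the data and not the design. With the replicate block 5223 genes were called, Tubb3 was at -0.13 (adjusted P = 0.0164, edgeR) and Thy1 at 0.13 (adjusted P = 0.00854, edgeR). The counts of the gene lists stayed within 1.5 times under RLE factors and totals without CT010467.1. Opn4 rests on 8 to 83 counts a library.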

Other observations

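Markers of further cells were read in the same edgeR fit, in which 13.9% of all genes tested were higher and 13.6% lower. Of the 6 Müller glia markers, Kcnj10 rose by 0.17, Vim (-0.21) and Slc1a3 fell, and 3 did not pass, with a summed level of 5120 to 5418 CPM in GFP and 4831 to 5056 CPM in Ezh2-Y726D. Of the 4 tested astrocyte and oligodendrocyte markers 2 were lower, with Gfap at -0.29. Of the 6 endothelial markers 2 were lower, with Pecam1 at -0.33, and their summed levels overlapped (950 to 1011 against 895 to 959 CPM). The 3 tested horizontal cell markers did not pass, and Calb1, the most abundant, was at 0.14.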
